A study of Mus musculus with 9 samples.

Results

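Wnt ligands, their receptors and the secreted proteins that act on them were examined in penile tissue of rats 4 weeks after surgery on the major pelvic ganglia. Autonomic nerves to the erectile tissue run through these paired ganglia. The members were the protein-coding genes of the deposited count tables whose symbols carry the family names Wnt, Fzd, Sfrp, Dkk, Rspo or Lgr with a number, together with Frzb, Wif1, Lrp5, Lrp6, Axin2 and Notum. This rule found 48 of 21124 genes. They comprised 18 Wnt ligands, 12 receptors (10 Frizzled genes with Lrp5 and Lrp6), 6 inhibitors that bind ligands (Sfrp1, Sfrp2, Sfrp4, Sfrp5, Frzb and Wif1), 4 Dkk genes, 6 genes of the R-spondin and Lgr families, and the feedback genes Axin2 and Notum.

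Wnt proteins are lipid-modified secreted signals. At the cell surface they bind a Frizzled receptor with the co-receptors Lrp5 or Lrp6, which stabilises beta-catenin and switches on target genes, or they act through Frizzled and Ror receptors on cell shape and planar polarity without beta-catenin. Secreted frizzled-related proteins and Wif1 bind the ligands, Dkk1 binds the Lrp co-receptors, R-spondins with Lgr receptors keep Frizzled on the surface, and Axin2 and Notum are induced by the pathway and dampen it. In connective tissue the pathway is known for its part in fibroblast growth and scar formation.

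There were 3 groups of 3 libraries. Rats of the Sacral NC group had clamps on the ganglia of both sides and then a transplant of sacral neural crest cells. The title of the series describes these cells as derived from human pluripotent stem cells. In the Injury group the ganglia were clamped on both sides, and the sources name no mock transplantation. In the Sham group the operation was done without injury of the ganglia. The labels give neither strain, age nor sex, and they do not say whether the libraries of a group came from separate animals, so p-values measure the spread between these libraries. Every gene identifier was a rat identifier, so RNA of the transplanted human cells was not measured apart.

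Total counts per library ran from 15442190 to 18283418. The labels give the cell type as pluripotent stem cells, but Pou5f1 and Lin28a, markers of such cells chosen after the data were seen, did not exceed 2 and 4 reads per library. Fibroblast, smooth muscle, endothelial, epithelial and Schwann cell markers were all present, and the neuronal genes Th and Vip had under 10 reads everywhere. The fibroblast list (12 of 12 genes found) took 3.02 to 5.13% of counts in Sacral NC, 14.1 to 17.6% in Injury and 4.20 to 4.63% in Sham. This list includes the collagen genes Col1a1, Col1a2 and Col3a1, and its genes did not all move the same way, as given below. Skeletal muscle genes took 0.294% of counts in Sacral NC 2, 0.257% in Injury 1, 3.25% in Injury 2 and 1.13% in Sham 1, and at most 0.0122% in the other 5 libraries. In bulk tissue, fewer cells of a type and less RNA per cell cannot be told apart.

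Of the 48 members, 42 passed the filter on low counts and were tested. The other 6 were Dkk4, Wnt1, Wnt3, Wnt3a, Wnt7a and Wnt8b. Wnt3 and Wnt7a did not exceed 1 read per library, Wnt8b 2 reads and Dkk4 5 reads. Wnt1 reached 11 reads and Wnt3a 32, both in Sacral NC 1. Wnt3a had at most 14 reads in each of the other 8 libraries. These genes did not reach the minimum of the filter in enough libraries at this depth, which does not show that they were absent.

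Injury against Sham asks how clamping of the ganglia changed RNA of the penis. A gene passed where its Benjamini-Hochberg adjusted p over the 15509 tested genes was under 0.05 by the edgeR quasi-likelihood test. Of the 42 tested members 2 passed, both higher (Wnt5a and Dkk3), which is 4.76%. Over all tested genes 4.43% passed, 3.09% higher and 1.34% lower, so the members' share was near the background. No Frizzled or Lrp receptor, ligand-binding inhibitor, R-spondin, Lgr or feedback gene passed. For 11 members, or 26.2%, Injury and Sham libraries had no overlap, against 35.3% of all tested genes. These were Dkk3, Fzd2, Lrp5, Rspo2, Wif1 and Wnt5a, higher in Injury (15.4% of all tested genes), and Fzd4, Sfrp1, Sfrp5, Wnt2b and Wnt6, lower (19.9%). At an unadjusted p under 0.05 there were 6 members, against 21.9% of all tested genes. The count of 2 became 0 without any single Injury library and without Sham 2 or Sham 3, 1 without Sham 1 and 4 without Sacral NC 2. Calls over all genes shifted too, to 0.717 to 1.64% without single Injury libraries and 0.44% and 0.133% without Sham 2 and Sham 3. Without Sham 1 the share was 1.67% of all genes (2.33% of members), and without Sacral NC 2 it was 8.42% (9.3% of members). In the authors' deposited table, Dkk3, Lrp5, Wif1 and Wnt5a passed at an adjusted p under 0.05, all 4 higher in Injury. That is 9.3% of the 43 members with an adjusted p in the authors' deposited table, against 10% of all its genes.

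The comparison of Sacral NC with Injury asks what changed with the transplant. Dkk3 alone passed, lower, as 1 of 42 members or 2.38%, against 6.96% of all tested genes, 3.26% higher and 3.7% lower. At an unadjusted p under 0.05 there were 8 members, against 26.6% of all tested genes. There was no overlap for 3 members, or 7.14%, against 26.4% of all tested genes: Fzd4 was higher in Sacral NC (14.1% of all tested genes), and Dkk3 and Wnt5a were lower (12.4%). The authors' deposited table passed 3 members, with Rspo1 higher and Dkk3 and Wnt5a lower in Sacral NC. That is 7.32% of the 41 members with an adjusted p in the authors' deposited table, against 14.8% of all its genes. In the edgeR fits with a single library left out, the counts were highest without Sacral NC 2. Without that library 12 of 43 tested members passed, 10 higher and 2 lower, which is 27.9%, against 22.6% of all genes tested in that setting. The 12 were Rspo1, Sfrp1, Sfrp2, Sfrp5, Fzd4, Wnt2, Wnt2b, Wnt9a, Wnt10b and Wnt11, higher in Sacral NC, and Dkk1 and Dkk3, lower. The count was 2 without Sham 2 (4.76%, against 4.65% of all genes tested in that setting). It was 0 without Sacral NC 1, Sacral NC 3, Sham 3 or any single Injury library, where 1.81 to 3.15% of all tested genes passed.

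Between Sacral NC and Sham 0 of 42 members passed, as did 0 of 15509 genes (0%), by the edgeR quasi-likelihood test. At an unadjusted p under 0.05 there was 1 member, Rspo1, and 1232 genes (7.94%). DESeq2 called 62 genes in this comparison and 0 members. The authors' deposited table passed 0 members and 0.359% of all its genes. For 35 of the 42 members the log2 change was above 0 (83.3%, against 50.6% of all tested genes), with a median of 0.24 against 0.00312. No member had libraries without overlap between these groups, against 13.3% of all tested genes (6.72% higher and 6.53% lower). The median was 0.11 without Sacral NC 1 and between 0.18 and 0.29 under the other 17 settings.

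**Figure D1:**
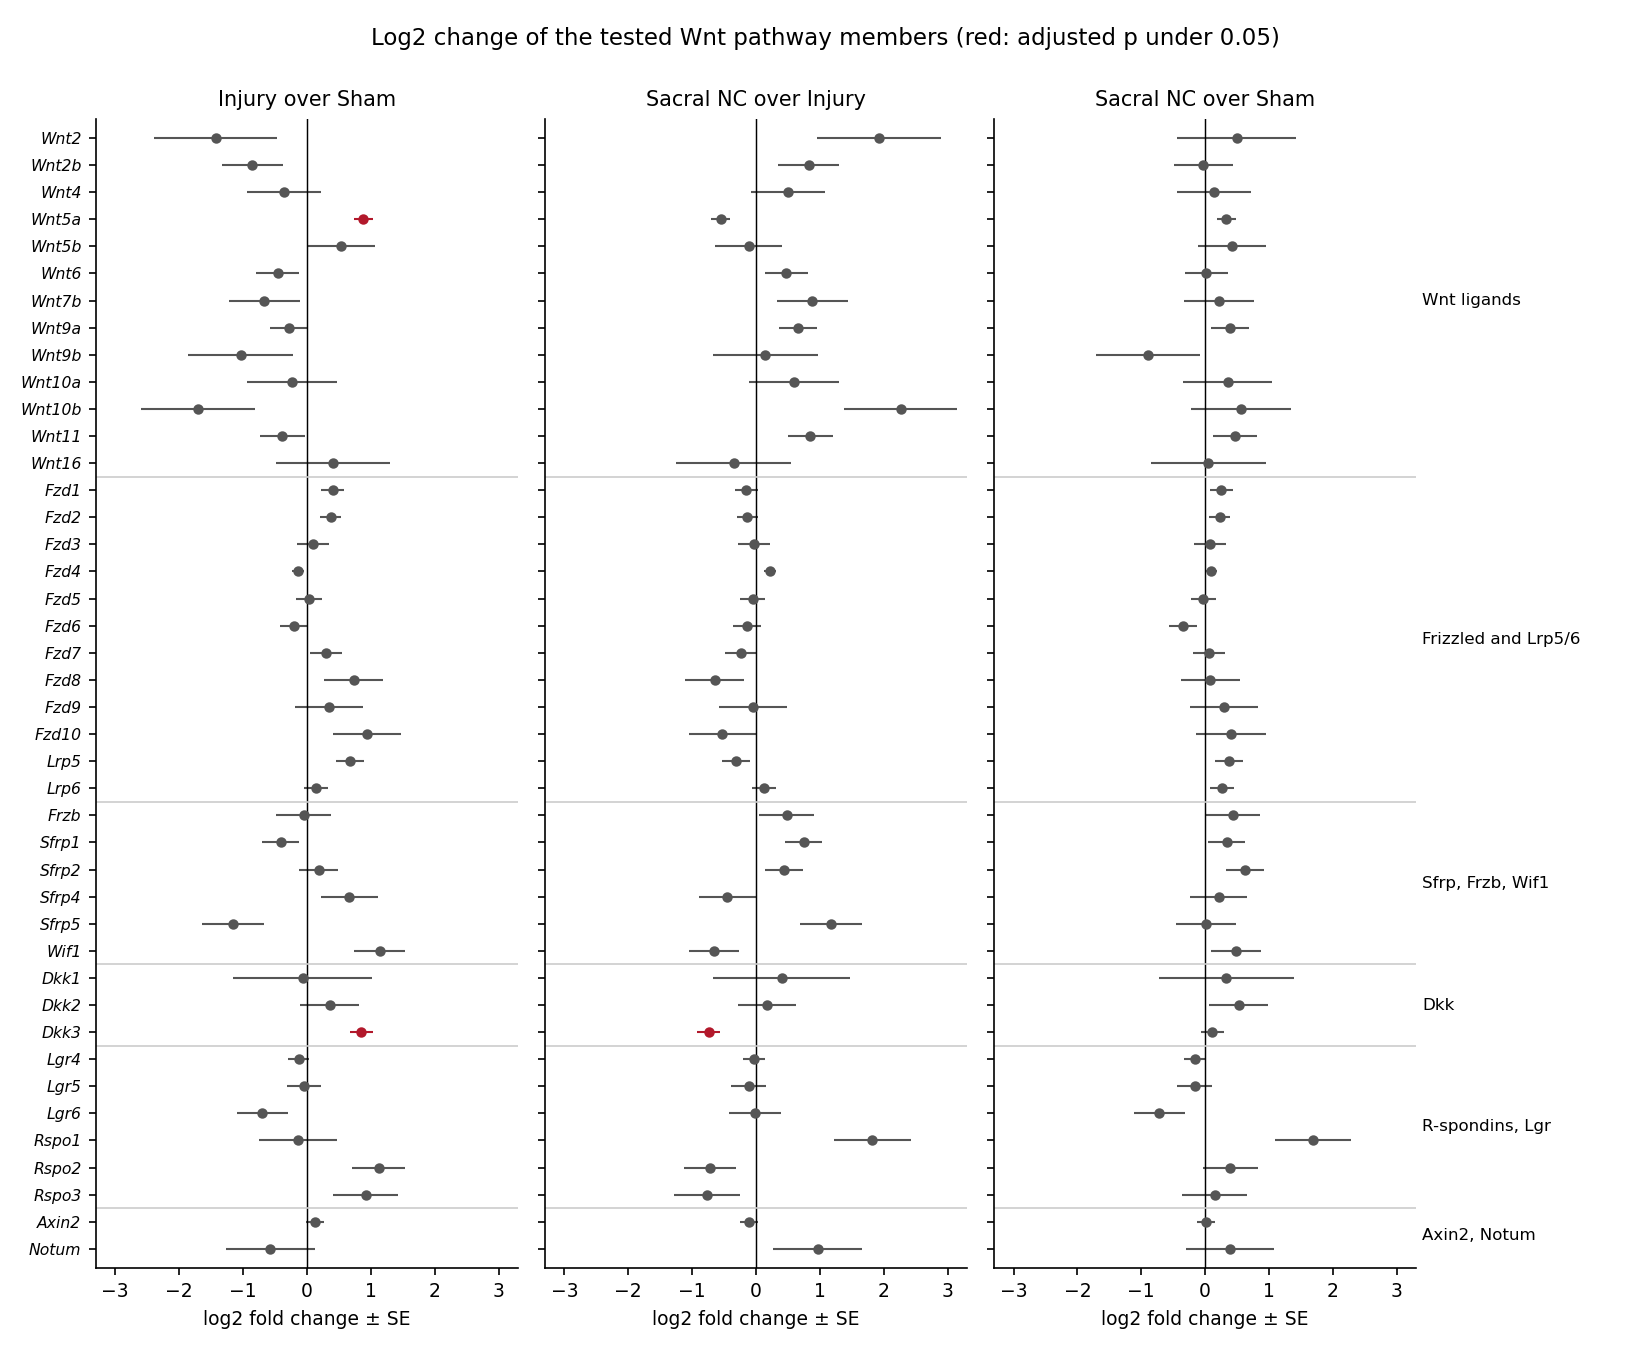
Log2 fold change ± SE (horizontal axes) of the 42 tested members, by role, for Injury over Sham, Sacral NC over Injury and Sacral NC over Sham, with members past the adjusted threshold of 0.05 in red. Wnt5a and Dkk3 are past it in the left panel and Dkk3 in the middle one, and in the right panel 35 of 42 points lie above 0.

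Among the ligands, Wnt5a was higher in Injury. Wnt5a (ENSRNOG00000015618, chromosome 16, 3697032 to 3718234, plus strand) encodes a ligand best known for signalling without beta-catenin. Its TMM-scaled counts, which are counts divided by the effective library size and brought to a common size, were 929, 945 and 874 in Injury 1, 2 and 3, against 487, 397 and 604 in Sham 1, 2 and 3. All 3 Injury libraries lay above all 3 Sham libraries. The mean was 916 ± 37.1 in Injury and 496 ± 103 in Sham (SD, n = 3 each), a log2 change of 0.88 ± 0.15 (SE) with a Benjamini-Hochberg adjusted p of 0.0203 by the edgeR quasi-likelihood test. The change was between 0.75 and 1.05 under all 18 alternative settings. The call did not hold without any single Injury library (adjusted p 0.0607 to 0.0673, edgeR) or any single Sham library (0.0519 to 0.0656), and it held without each Sacral NC library (0.0145 to 0.0253).

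Wnt5a had 693, 550 and 630 scaled counts in Sacral NC 1, 2 and 3, all below the Injury values given above. The log2 change of Sacral NC against Injury was −0.55 ± 0.15 and missed the threshold (adjusted p = 0.0658, edgeR quasi-likelihood test). It passed by DESeq2 (adjusted p = 0.0112) and without Sham 2 (0.0487, edgeR). Against Sham, the Sacral NC values overlapped those of Sham, with a log2 change of 0.33 ± 0.15 (adjusted p = 0.63, edgeR). Both comparisons with Injury share the Injury libraries and are not independent of each other.

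The other 12 tested ligands did not pass in any comparison. In Injury against Sham 10 of the 13 tested ligands had log2 changes below 0, with a median of −0.38, against −0.0392 over all tested genes. The share above 0 was 23.1%, against 45% of all tested genes. Wnt2, a ligand of the beta-catenin branch, had 334, 14.2 and 327 scaled counts in Sacral NC 1, 2 and 3, 29.2, 67.8 and 80.4 in Injury, and 53.8, 196 and 230 in Sham. Sacral NC 1 and 3 were the highest of all and Sacral NC 2 the lowest, so Sacral NC overlapped both other groups. Sham 1 lay within the Injury range, so Injury and Sham overlapped too. Its log2 changes were −1.43 ± 0.97 for Injury against Sham (adjusted p = 0.417) and 1.93 ± 0.97 for Sacral NC against Injury (adjusted p = 0.244, both edgeR).

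Wnt4, a ligand with roles in epithelium and the urogenital tract, had 644, 350 and 99.4 scaled counts in the Sacral NC libraries, 330, 267 and 178 in Injury, and 214, 456 and 322 in Sham. The 3 ranges overlapped, and the Sacral NC libraries spanned all the others. Wnt9a had 468, 231 and 440 scaled counts in Sacral NC, 220, 248 and 251 in Injury, and 214, 260 and 398 in Sham. Sacral NC 1 and 3 stood highest while Sacral NC 2 lay within the Injury range. Wnt9b had 190, 28.3 and 35.2 scaled counts in Sacral NC, 94.3, 29.9 and 105 in Injury, and 57.4, 187 and 228 in Sham. Wnt9b had the largest log2 change of the ligands with at least 50 scaled counts for Sacral NC against Sham, −0.90 ± 0.82 (adjusted p = 0.782, edgeR), which was within the spread between libraries.

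The remaining tested ligands were Wnt2b, Wnt5b, Wnt6, Wnt7b, Wnt10a, Wnt10b, Wnt11 and Wnt16. Wnt2b and Wnt6 did not overlap between Injury and Sham. Wnt2b had 29.2, 23.0 and 21.4 scaled counts in Injury and 44.0, 39.5 and 49.8 in Sham, with all Injury libraries below all Sham libraries. Wnt11, which acts in planar movements of cells, had 118, 62.7 and 163 scaled counts in Sacral NC, 61.8, 62.1 and 66.1 in Injury, and 59.2, 83.5 and 105 in Sham. Sacral NC 2 lay among the Injury values and the other Sacral NC libraries lay above them. Wnt10b, a ligand known to hold back fat cell formation, had 59.8, 8.09 and 42.5 scaled counts in Sacral NC, 1.08, 10.3 and 11.2 in Injury, and 9.87, 36.7 and 28.2 in Sham, where Sacral NC 2 again lay among the Injury values.

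Several Wnt genes lie next to each other in the rat genome. The span of Wnt3a ends 15.8 kb from Wnt9a on chromosome 10, and Wnt9b lies 23.2 kb from Wnt3 on the same chromosome. Wnt10b lies 10.7 kb from Wnt1 on chromosome 7, and Wnt6 lies 6.4 kb from Wnt10a on chromosome 9. In the first 3 pairs, transcribed in opposite directions, a detected gene stood beside one with few reads: at most 469 reads for Wnt9a and 32 for Wnt3a, 242 for Wnt9b and 1 for Wnt3, and 60 for Wnt10b and 11 for Wnt1. The spans of Wnt2b, Wnt5b, Sfrp4, Lgr5 and Dkk4 each overlap another annotated gene. Whether the counting used strand is not stated, so reads of these 5 genes may be shared with their neighbours.

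**Figure D2:**
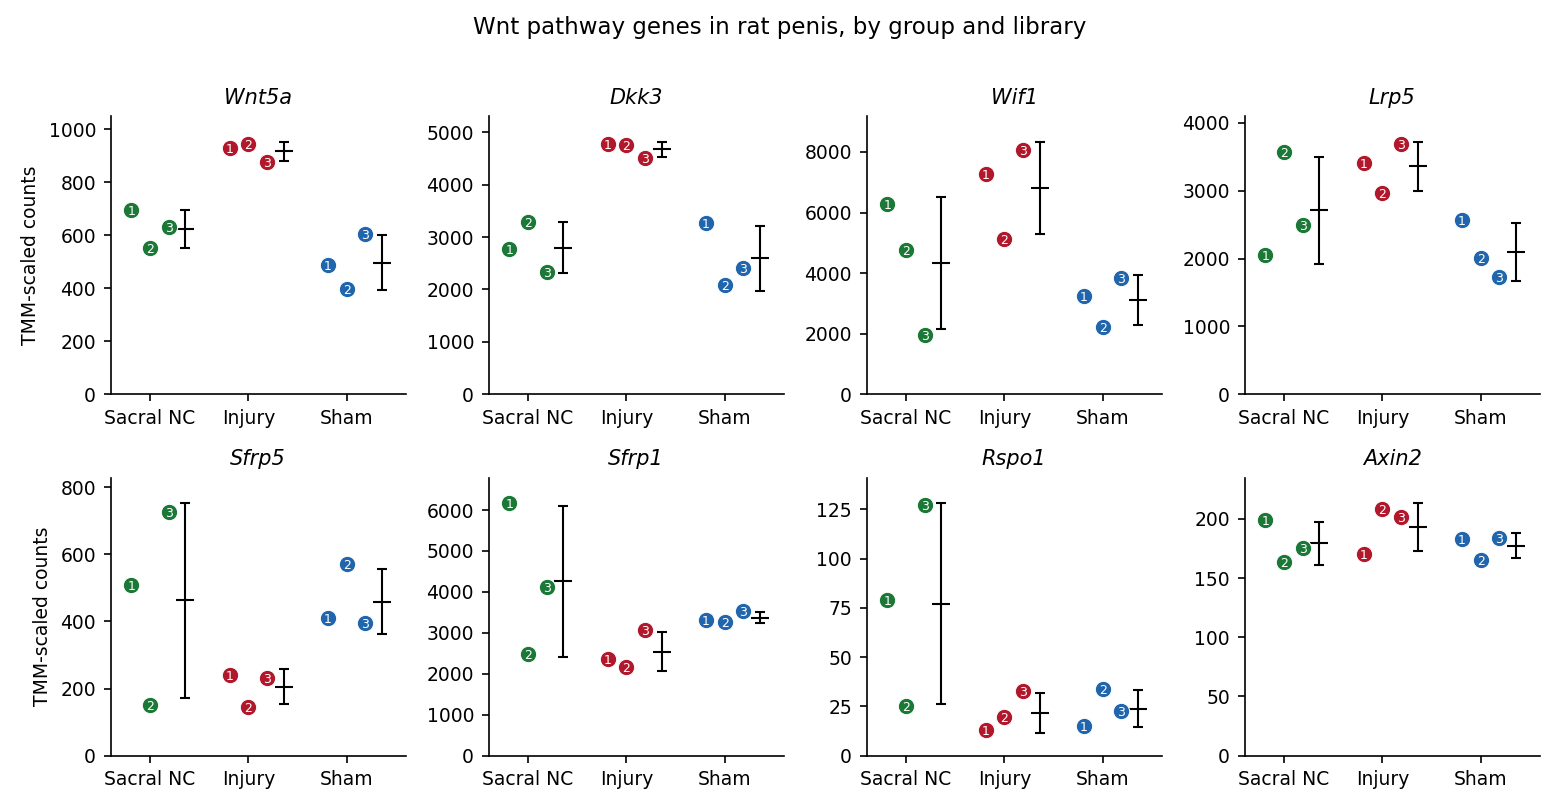
TMM-scaled counts (vertical axes, from 0) of 8 members in each library of Sacral NC (green), Injury (red) and Sham (blue), with the library number in each point and the group mean ± SD (n = 3) beside the points. For Wnt5a and Dkk3 the 3 Injury libraries sit above all other libraries, while the Axin2 values of the 3 groups overlap.

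Among the Dkk genes, Dkk3 was higher in Injury than in Sham and lower in Sacral NC than in Injury. Dkk3 (ENSRNOG00000016343, chromosome 1, 166238238 to 166280590, minus strand) encodes a secreted glycoprotein that is the most divergent of its family and, unlike Dkk1, is not established as a ligand of the Lrp co-receptors. It had 2774, 3289 and 2335 scaled counts in Sacral NC 1, 2 and 3, 4767, 4751 and 4509 in Injury, and 3274, 2094 and 2406 in Sham. Every Injury library lay above all 6 others, and the Sacral NC and Sham values overlapped. Means were 2799 ± 477 in Sacral NC, 4676 ± 145 in Injury and 2591 ± 612 in Sham (SD, n = 3 each).

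The log2 change of Dkk3 was 0.85 ± 0.18 for Injury against Sham (adjusted p = 0.038) and −0.74 ± 0.18 for Sacral NC against Injury (adjusted p = 0.0459, both by the edgeR quasi-likelihood test). For Sacral NC against Sham it was 0.11 ± 0.18 (adjusted p = 0.888, edgeR). The call in Injury against Sham did not hold without any single Injury library (adjusted p 0.0999 to 0.106, edgeR) or without Sham 2 or Sham 3 (0.135 and 0.162). The call in Sacral NC against Injury did not hold without any single Injury library (0.115 to 0.121), without Sacral NC 1 or 3 (0.134 each) or without Sham 3 (0.0832), and it held without Sacral NC 2, Sham 1 or Sham 2. Dkk3 kept its direction in these comparisons with Injury under all 18 settings, between 0.72 and 1.06 for Injury against Sham and between −0.87 and −0.60 for Sacral NC against Injury.

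Dkk1, an inhibitor of the Lrp co-receptors, was scarce, with at most 38 reads in a library. It had 2.00, 38.4 and 1.04 scaled counts in Sacral NC, 13.0, 9.20 and 9.16 in Injury, and 18.8, 4.59 and 9.40 in Sham. Sacral NC held both the highest and the lowest libraries, so the sign of its change depended on Sacral NC 2. Dkk2, which also binds Lrp co-receptors, had 385, 91.0 and 317 scaled counts in Sacral NC, 174, 212 and 318 in Injury, and 155, 187 and 208 in Sham. The groups overlapped, and its log2 changes were 0.36 ± 0.46, 0.17 ± 0.46 and 0.53 ± 0.46 in the order Injury against Sham, Sacral NC against Injury and Sacral NC against Sham (adjusted p = 0.691, 0.839 and 0.774, edgeR).

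Cell cycle genes and part of the fibroblast list moved with Wnt5a and Dkk3. In Injury against Sham 5 of 12 fibroblast genes passed as higher (41.7%, against 4.43% of all tested genes). These were Col1a1, Col1a2, Col3a1, Col14a1 and Thy1, and the median log2 change over the list was 1.01. Of the 12 genes, 6 passed as lower in Sacral NC against Injury (50%, against 6.96% of all tested genes), the same 5 and Postn. Others of the list ran the opposite way without passing. Log2 changes in Injury against Sham were below 0 for Dcn, Lum, Pdgfra and Pi16, with Dcn (−0.73) and Pi16 (−1.40) lower in every Injury library than in every Sham library. Those of Sacral NC against Injury were above 0 for the same 4 genes and Dpt, up to 2.15 for Pi16. Summed over 44 genes, the collagen chains took 2.15 to 5.21% of counts in Sacral NC, 15.1 to 18.7% in Injury and 3.77 to 4.52% in Sham. In the cell cycle list of 18 genes, 13 passed as higher in Injury against Sham (72.2%, against 4.43% of all tested genes). In Sacral NC against Injury, 17 passed as lower (94.4%, against 6.96%). The list took 0.00861 to 0.0104% of counts in Sacral NC, 0.0223 to 0.0316% in Injury and 0.0114 to 0.0133% in Sham. Marker lists of other cells shifted as well. Of 12 endothelial genes, 6 passed as lower in Injury against Sham and 6 as higher in Sacral NC against Injury (50% each). All 4 tested neutrophil genes passed as lower in Injury against Sham, and 0 passed in Sacral NC against Injury. The lists were chosen with earlier results of these data known. The part of these shifts in the Wnt5a and Dkk3 results was not tested.

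The receptors did not pass the test in any comparison. In Injury against Sham 10 of 12 had log2 changes above 0 (83.3%, against 45% of all tested genes), with a median of 0.32 against −0.0392. Against Injury, Sacral NC had 10 of 12 below 0, with a median of −0.14 against 0.0265 over all tested genes. That left 16.7% above 0, against 53.3% of all tested genes. The largest shift of the co-receptors was that of Lrp5 (ENSRNOG00000015911), with 3411, 2968 and 3697 scaled counts in Injury and 2565, 2012 and 1727 in Sham. Every Injury library lay above every Sham library. The log2 change was 0.68 ± 0.22, with an adjusted p of 0.122 by edgeR and 0.0406 by DESeq2. In Sacral NC, Lrp5 had 2053, 3578 and 2501 scaled counts, a range that overlapped both other groups.

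Lrp6, the other co-receptor, had 2031, 1560 and 2622 scaled counts in Sacral NC, 1924, 1606 and 2159 in Injury, and 1895, 1609 and 1651 in Sham. The 3 ranges overlapped, and the log2 change was 0.14 ± 0.19 for Injury against Sham (adjusted p = 0.697) and 0.13 ± 0.19 for Sacral NC against Injury (0.696, edgeR). Of the Frizzled receptors, Fzd2 and Fzd4 did not overlap between Injury and Sham. Fzd2 had 589, 653 and 730 scaled counts in Injury, above the 512, 527 and 485 in Sham. Fzd4, known for its role in vessels, had 1024, 865 and 1001 in Sacral NC, 796, 853 and 825 in Injury, and 871, 996 and 856 in Sham, so that the Injury libraries were the lowest. The endothelial list of 12 genes took 0.153 to 0.205% of counts in Sacral NC, 0.0808 to 0.0920% in Injury and 0.173 to 0.182% in Sham, and its part in the Fzd4 values was not tested.

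Fzd8 had the widest Frizzled differences in both comparisons with Injury, among those with at least 50 scaled counts. It had 497, 1560 and 846 scaled counts in Sacral NC, 1582, 1534 and 1433 in Injury, and 1531, 528 and 684 in Sham. The 5 high libraries were all of Injury, Sacral NC 2 and Sham 1. The log2 changes of 0.73 ± 0.47 for Injury against Sham (adjusted p = 0.39) and −0.65 ± 0.47 for Sacral NC against Injury (0.402, edgeR) were within the spread between libraries. The same 5 libraries had the highest shares of the 10 smooth muscle genes, 1.19% in Sacral NC 2, 0.547 to 0.767% in Injury and 0.954% in Sham 1, against 0.213 to 0.433% in the other 4 libraries. All of them but Injury 3 were also the libraries with skeletal muscle RNA. Their part in the Fzd8 values was not tested.

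**Figure D3:**
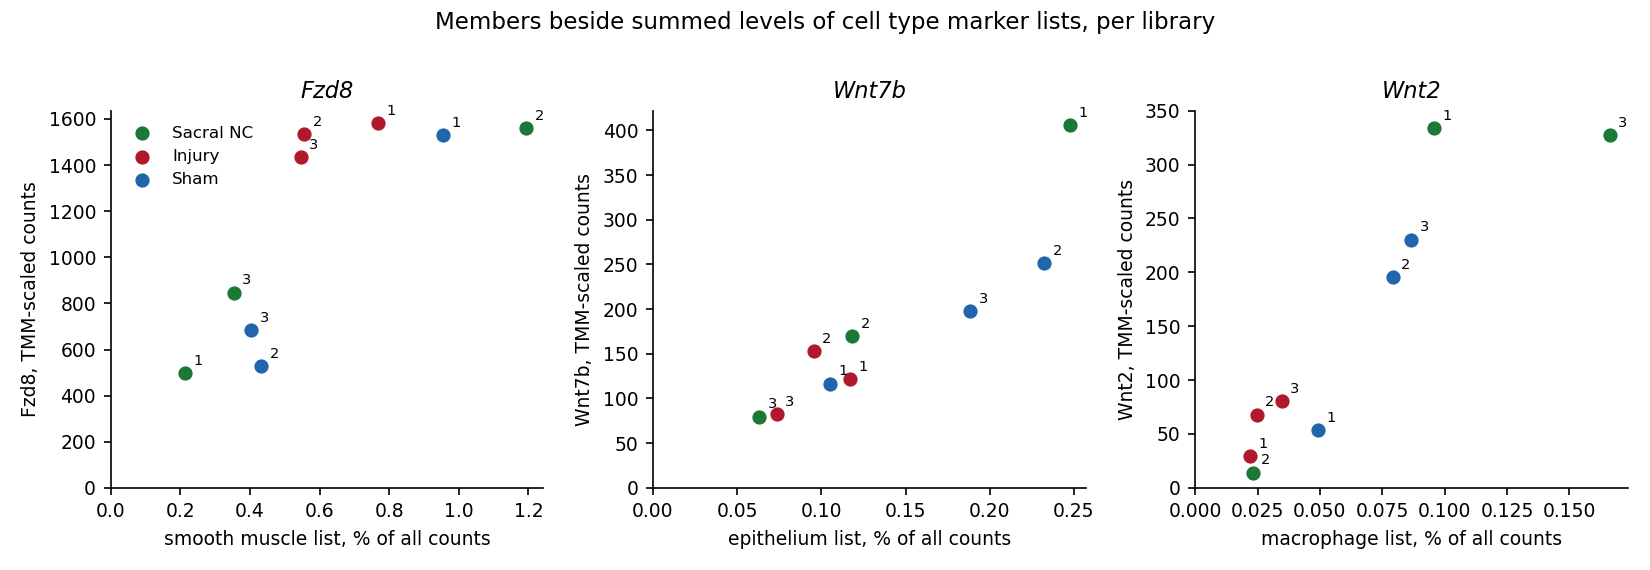
Scaled counts (vertical axes) of Fzd8, Wnt7b and Wnt2 in each library against the share of all counts in the smooth muscle, epithelium and macrophage lists (horizontal axes, %), with groups by colour and libraries by number. The libraries with more counts of a list were mostly those with more of the gene beside it, within as well as between the groups.

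Wnt7b and Wnt2 also moved with the summed markers of particular cells. Wnt7b, a ligand made by epithelia in development, had 406, 170 and 79.8 scaled counts in Sacral NC, 121, 153 and 82.4 in Injury, and 117, 252 and 198 in Sham. The 10 epithelial genes found took 0.248, 0.118 and 0.0632% of counts in the same Sacral NC libraries, 0.117, 0.0955 and 0.0737% in Injury, and 0.105, 0.233 and 0.188% in Sham. The epithelial genes did not all move the same way. In Injury against Sham 8 of the 10 had log2 changes below 0. Krt10 and Krt13 were higher in every Injury library than in every Sham library. Krt13 alone passed, higher in Injury than in Sham (adjusted p = 0.0194) and lower in Sacral NC than in Injury (0.0101, edgeR). Wnt2 was low in the libraries low in macrophage genes. These were the same libraries that had the highest smooth muscle shares given above. The 9 macrophage genes took 0.0958, 0.0231 and 0.166% of counts in Sacral NC 1, 2 and 3, 0.0220 to 0.0348% in Injury, and 0.0492, 0.0792 and 0.0866% in Sham 1, 2 and 3. The part of these cell types in the Wnt7b and Wnt2 values was not tested. These 3 genes and the lists set beside them were picked for display after their values were seen.

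None of the 6 inhibitors that bind ligands passed the edgeR test. Wif1 (ENSRNOG00000004476, chromosome 7, 56548053 to 56618360) had 7271, 5131 and 8067 scaled counts in Injury and 3251, 2213 and 3841 in Sham. The groups did not overlap, and the log2 change was 1.14 ± 0.40, with an adjusted p of 0.148 by edgeR and 0.0277 by DESeq2. In Sacral NC, Wif1 ran from 6282 in library 1 through 4749 in library 2 to 1965 in library 3. That range held values both inside the Injury range and below every Sham library, and the log2 change against Injury was −0.66 ± 0.40 (adjusted p = 0.322, edgeR).

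Sfrp5, which binds Wnt5a among other ligands, was low in Injury. It had 510, 152 and 727 scaled counts in Sacral NC, 240, 145 and 233 in Injury, and 409, 571 and 397 in Sham. All Injury libraries lay below all Sham libraries, and Sacral NC 2 lay inside the Injury range. The log2 change was −1.16 ± 0.49 for Injury against Sham (adjusted p = 0.213) and 1.17 ± 0.49 for Sacral NC against Injury (0.17, edgeR). Sfrp1 had 6174, 2476 and 4119 scaled counts in Sacral NC, 2367, 2176 and 3078 in Injury, and 3319, 3268 and 3529 in Sham. Here too the Injury libraries were below all Sham libraries while Sacral NC 2 was among the Injury values. The log2 change was −0.41 ± 0.29 for Injury against Sham (adjusted p = 0.438) and 0.74 ± 0.29 for Sacral NC against Injury (0.148, edgeR).

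Sfrp2, a product of matrix-forming fibroblasts, had 3708, 1909 and 4607 scaled counts in Sacral NC, 2645, 2022 and 2871 in Injury, and 2296, 1763 and 2581 in Sham. The groups overlapped, with log2 changes of 0.18 ± 0.30 for Injury against Sham (adjusted p = 0.761) and 0.62 ± 0.30 for Sacral NC against Sham (0.632, edgeR). Sfrp4 and Frzb also overlapped in all 3 comparisons. Sfrp4 ranged from 776 to 2064 scaled counts in Sacral NC, from 1352 to 2656 in Injury and from 778 to 2017 in Sham. Frzb ranged from 142 to 447 in Sacral NC, from 122 to 318 in Injury and from 202 to 249 in Sham.

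No gene of the R-spondin and Lgr families passed the edgeR test. Rspo1, a secreted agonist that raises the response to Wnt, had the largest shift among those with at least 50 scaled counts in the comparisons with Sacral NC. It had 78.8, 25.3 and 127 scaled counts in Sacral NC, 13.0, 19.5 and 32.6 in Injury, and 15.2, 33.96 and 22.6 in Sham. Sacral NC 1 and 3 lay above all other libraries, and Sacral NC 2 lay among them. The log2 change was 1.82 ± 0.60 for Sacral NC against Injury (adjusted p = 0.103 by edgeR, 0.0303 by DESeq2) and 1.68 ± 0.59 for Sacral NC against Sham (0.606, edgeR).

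Rspo3, another agonist of the family, had 55.8, 210 and 109 scaled counts in Sacral NC, 244, 128 and 268 in Injury, and 164, 67.0 and 107 in Sham. The groups overlapped, with log2 changes of 0.92 ± 0.51 for Injury against Sham (adjusted p = 0.332) and −0.77 ± 0.51 for Sacral NC against Injury (0.366, edgeR). Rspo2 was scarce, at 7.98 to 13.2 scaled counts in Sacral NC, 10.8 to 26.4 in Injury and 6.42 to 9.87 in Sham. Its Injury libraries lay above its Sham libraries, at 23 reads or fewer. Among the receptors of R-spondins, Lgr4 had 810, 541 and 531 scaled counts in Sacral NC, 666, 589 and 662 in Injury, and 641, 793 and 666 in Sham. Lgr5, known as a stem cell marker in epithelia, had 1199, 1397 and 787 in Sacral NC, 1182, 823 and 1660 in Injury, and 1359, 1117 and 1309 in Sham. The groups overlapped for Lgr4, Lgr5 and Lgr6 in all 3 comparisons.

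Axin2 and Notum, whose transcription is widely used as a readout of beta-catenin signalling, did not pass either. Axin2 (ENSRNOG00000055010) had 200, 164 and 175 scaled counts in Sacral NC, 170, 208 and 202 in Injury, and 183, 165 and 184 in Sham. The ranges overlapped, and the log2 change was 0.12 ± 0.14 for Injury against Sham (adjusted p = 0.644) and −0.11 ± 0.14 for Sacral NC against Injury (0.651, edgeR). Notum, a secreted enzyme that removes the lipid of Wnt proteins, had 365, 257 and 42.5 scaled counts in Sacral NC, 171, 50.6 and 118 in Injury, and 208, 111 and 187 in Sham. The ranges of the 3 groups overlapped, and the log2 change of Sacral NC against Injury was 0.97 ± 0.70 (adjusted p = 0.403, edgeR).

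**Figure D4:**
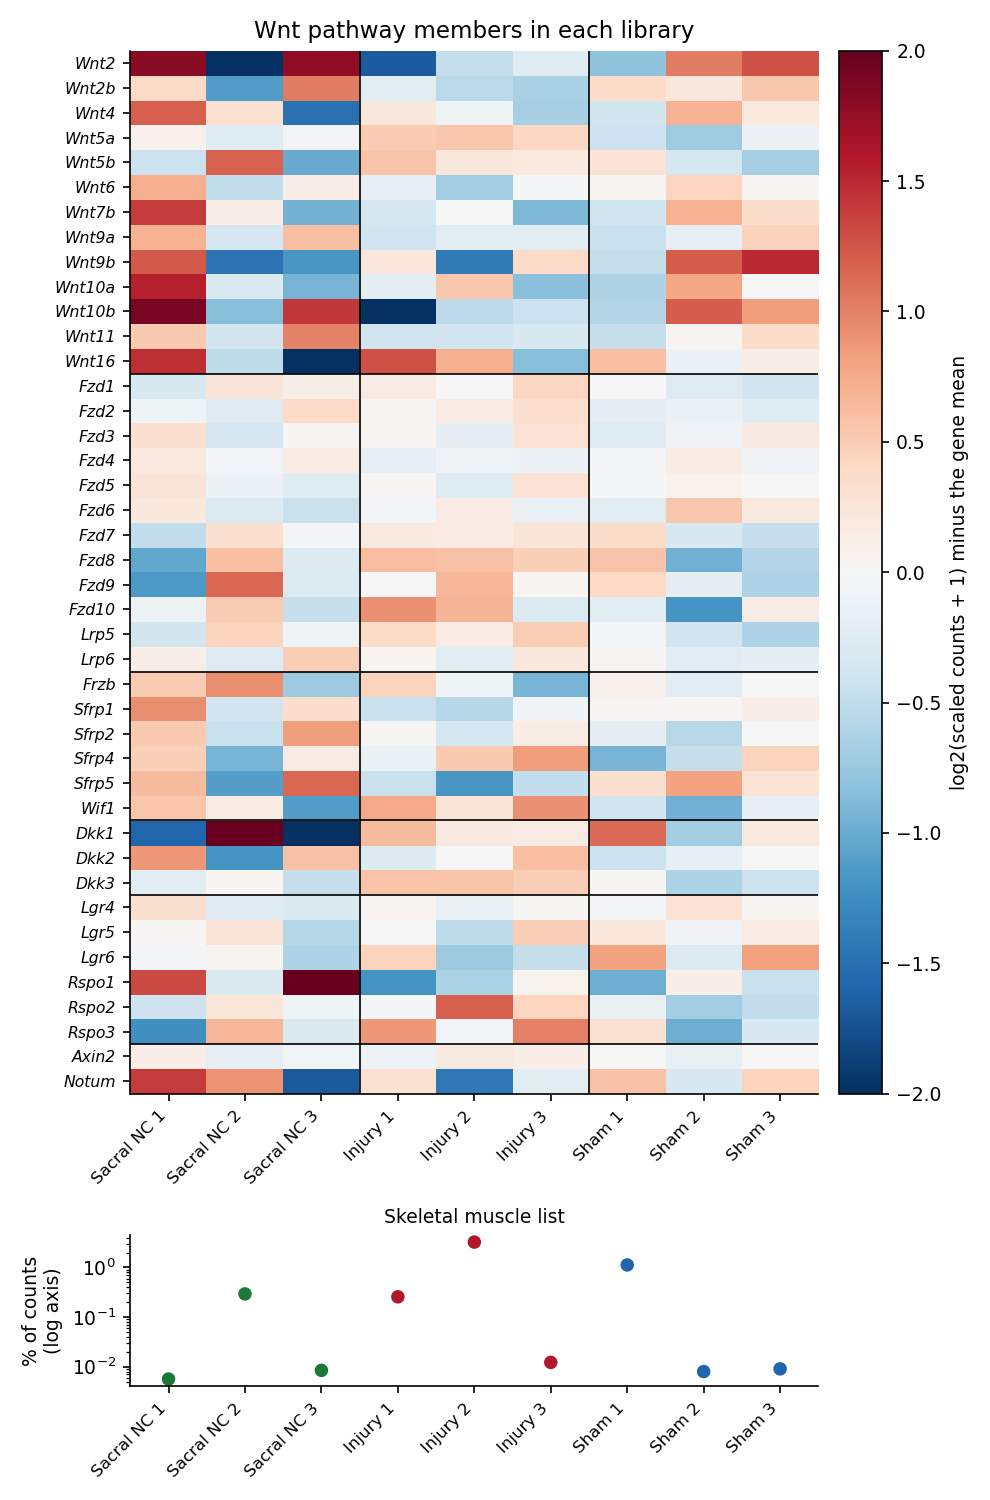
Log2 of scaled counts plus 1, minus the mean of the gene, for the 42 tested members (rows, by role) in the 9 libraries (columns), above the share of counts in the skeletal muscle list (%, log axis). Within Sacral NC, library 2 has the opposite colour to libraries 1 and 3 for Wnt2, Wnt10b, Sfrp5 and Rspo1.

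Libraries of a single group stood far apart on the leading axis of variation of the members. In a principal component analysis of the tested members, the first component held 51% and the second 22.4% of the variance. On the first, Sacral NC 2 (4.39) and Sacral NC 1 (−4.22) stood at opposite ends, with Sacral NC 3 at −3.80. Injury 1, 2 and 3 were at 3.47, 1.93 and 0.955, and Sham 1, 2 and 3 at 1.86, −2.67 and −1.92. All 4 libraries with over 0.1% of counts in skeletal muscle genes, together with Injury 3, were on the positive side. With the skeletal muscle score as a covariate, Wnt5a (log2 change 0.90, adjusted p = 0.0363) and Dkk3 (0.76, 0.0346) still passed in Injury against Sham, by edgeR. Without the 4 muscle-rich libraries, which leaves a single Injury library, the changes were 0.84 (adjusted p = 0.254) for Wnt5a and 1.04 (0.135) for Dkk3. Sacral NC against Injury then gave −0.60 (0.0656) for Dkk3 with the covariate and −0.87 (0.0752) without these libraries.

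Other genes of the pathway were read from 4 lists: surface co-factors, the beta-catenin pathway inside the cell, genes known as beta-catenin targets, and planar cell polarity. Each gene was counted once and the members were left out, which left 95 tested genes. Of these, 8 passed as higher and 0 as lower in Injury against Sham (8.42%, against 4.43% of all tested genes). In Sacral NC against Injury, 0 passed as higher and 6 as lower (6.32%, against 6.96%). None passed in Sacral NC against Sham. Their median log2 change was 0.11 in Injury against Sham and −0.11 in Sacral NC against Injury, against −0.0392 and 0.0265 over all tested genes. The first count was 15 without Sacral NC 2 (15.8%, against 8.42% of all genes tested in that setting). It was between 1 and 3 without any single Injury or Sham library (1.05 to 3.16%, against 0.133 to 1.67% of all tested genes). The second was 24 without Sacral NC 2, 5 higher and 19 lower (25.3%, against 22.6% of all genes tested in that setting). It was 2 or 3 without Sacral NC 1 or any single Injury or Sham library (2.11 to 3.16%, against 1.81 to 4.65% of all tested genes). With the skeletal muscle score as a covariate each count was 3 (3.16%, against 2.99% and 3.2% of all tested genes). Leaving out the 4 muscle-rich libraries left a single Injury library, so no count is given for that setting. DESeq2 called 16 of the 95 genes in each comparison, 14 higher and 2 lower in Injury against Sham and 5 higher and 11 lower in Sacral NC against Injury. That is 16.8%, against 7.51% and 10.8% of all genes tested by DESeq2 in the same order. With only the 2 groups compared the counts were 17 (14 higher and 3 lower) and 2. These are 17.9% and 2.11%, against 9.55% and 1.59% of all tested genes. With the replicate block each was 3 (3.16%, against 1.72% and 3.04%).

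Of 22 tested surface co-factors, 3 passed as higher in Injury than in Sham (13.6%, against 4.43% of all tested genes). In Sacral NC against Injury, 1 passed as lower (4.55%, against 6.96%). The largest shift was that of Cpz (ENSRNOG00000008947), a secreted carboxypeptidase with a Frizzled-like domain that binds Wnt. Cpz had 415, 883 and 706 scaled counts in Sacral NC, 3572, 3673 and 4220 in Injury, and 692, 664 and 813 in Sham. Every Injury library lay far above the other 6. The log2 change was 2.40 ± 0.25 for Injury against Sham (adjusted p = 0.00645) and −2.52 ± 0.25 for Sacral NC against Injury (0.00366, edgeR), and both calls held under 17 of 18 settings, the exception being the fit without the muscle-rich libraries (log2 2.55 and −2.96). Lrp4, a receptor of the Lrp family that binds sclerostin, and Gpc4, a glypican, also rose in Injury, with log2 changes of 0.67 ± 0.13 (adjusted p = 0.0287) and 0.52 ± 0.11 (0.0396, edgeR). Neither passed in Sacral NC against Injury (0.248 and 0.0742). Both calls were lost without any single Injury or Sham library (adjusted p 0.0613 to 0.11 for Lrp4 and 0.076 to 0.172 for Gpc4).

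Of 36 tested genes of the intracellular pathway, 2 passed as higher in Injury against Sham (5.56%, against 4.43% of all tested genes). In Sacral NC against Injury, 2 passed as lower (5.56%, against 6.96%). Log2 changes in Injury against Sham were below 0 for 14 of the 36 and above 0 for 22 (61.1%, against 45% of all tested genes). Ctnnbip1, which blocks the binding of beta-catenin to TCF factors, had 234, 242 and 237 scaled counts in Sacral NC, 346, 460 and 320 in Injury, and 251, 227 and 253 in Sham. Every Injury library lay above the other 6, and the log2 changes were 0.62 ± 0.14 for Injury against Sham (adjusted p = 0.0486) and −0.66 ± 0.14 for Sacral NC against Injury (0.0334, edgeR). Bcl9l, a co-activator of beta-catenin, rose in Injury by 0.52 ± 0.12 (adjusted p = 0.0466), and its relative Bcl9 fell in Sacral NC against Injury by 0.44 ± 0.11 on the log2 scale (0.0459, edgeR). The Ctnnbip1 and Bcl9l calls in Injury against Sham were lost without any single Injury or Sham library (adjusted p 0.0708 to 0.178 for Ctnnbip1 and 0.0773 to 0.187 for Bcl9l) and without Sacral NC 1 (0.0615 and 0.0517), and that of Ctnnbip1 also without Sacral NC 3 (0.0584). For Sacral NC against Injury, Bcl9 passed in the leave-one-out fits only without Sacral NC 2 (0.0112), and Ctnnbip1 only without Sacral NC 2 (0.0268) or Injury 3 (0.0491).

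Among 25 tested genes known as beta-catenin targets, 1 passed in each comparison with Injury, Ccn4, which is 4% and no more than the shares of all tested genes (4.43% and 6.96%). Ccn4 (ENSRNOG00000007078), a matricellular protein first described as a Wnt-induced gene, had 73.8, 119 and 197 scaled counts in Sacral NC, 693, 838 and 774 in Injury, and 232, 216 and 194 in Sham. Every Injury library was above the other 6. The log2 change was 1.84 ± 0.29 for Injury against Sham (adjusted p = 0.0169) and −2.56 ± 0.30 for Sacral NC against Injury (0.00625, edgeR). The call in Injury against Sham was lost without Injury 2 or 3 (0.0586 and 0.062) or any single Sham library (0.0507 to 0.0881), and the call in Sacral NC against Injury held without each library. The median of the target list was −0.0237 in Injury against Sham and −0.0162 in Sacral NC against Injury. Cpz and Ccn4 are also expressed by matrix-forming fibroblasts, whose marker shares, collagen genes included, are given above, and the part of those shifts was not tested.

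In the planar cell polarity list, 2 of 19 tested genes passed in each comparison with Injury (10.5%, against 4.43% of all tested genes for Injury against Sham and 6.96% for Sacral NC against Injury). Dchs1 and Fat4, a ligand and receptor pair between neighbouring cells, rose in Injury by 0.70 ± 0.12 (adjusted p = 0.0184) and 1.03 ± 0.21 (0.0322, edgeR). Fat4 had 1507, 2478 and 1960 scaled counts in Sacral NC, 3436, 2955 and 4130 in Injury, and 2037, 1486 and 1642 in Sham, and all Injury libraries lay above the other 6. Set against Injury, Sacral NC had less Fat4 and Fat1: Fat4 fell by 0.82 ± 0.21 (adjusted p = 0.0498) and Fat1, a related cadherin, by 0.58 ± 0.10 on the log2 scale (0.0179, edgeR). Fat1 had 3229, 3474 and 2867 scaled counts in Sacral NC, 4718, 4749 and 4821 in Injury, and 3730, 3866 and 3323 in Sham, with the Injury libraries again the highest. In Injury against Sham the Fat4 call was lost without any single Injury or Sham library (adjusted p 0.0559 to 0.136), and the Dchs1 call without Injury 2 or 3 or Sham 2 or 3 (0.0609 to 0.0881). As to Sacral NC against Injury, Fat4 passed in the leave-one-out fits only without Sacral NC 2 (0.0117), and the Fat1 call was lost without Sacral NC 1 or 3 or any single Injury library (0.0502 to 0.0682).

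**Figure D5:**
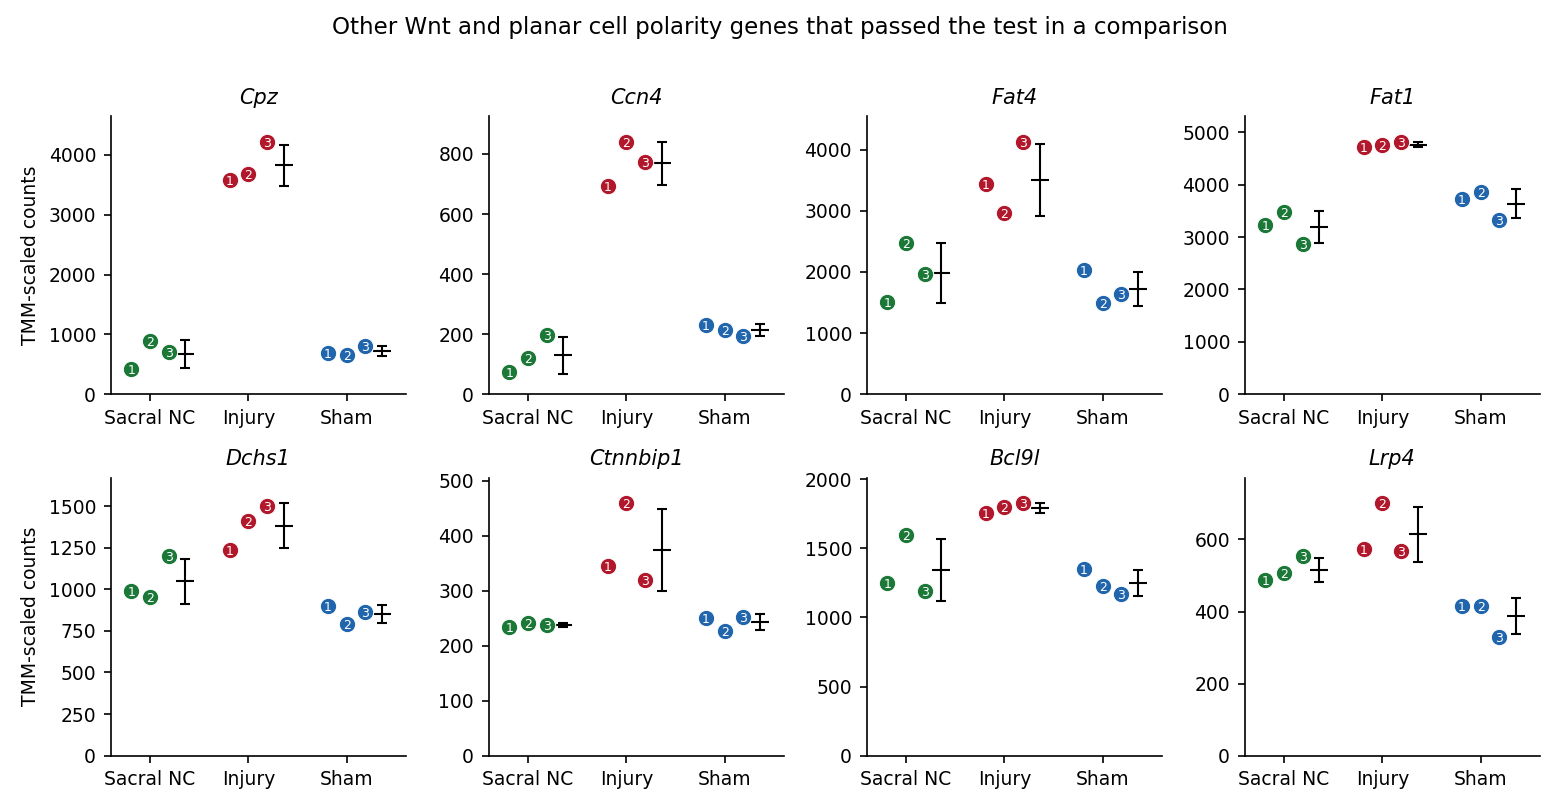
TMM-scaled counts (vertical axes, from 0) of 8 other pathway genes in each library of Sacral NC (green), Injury (red) and Sham (blue), with library numbers and the group mean ± SD (n = 3). The Injury libraries lie above all others for each of the 8 genes, most clearly for Cpz and Ccn4.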

How the data were processed

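RNA of 9 libraries of rat penile tissue was analysed, 3 each of Sacral NC, Injury and Sham, grouped by their titles. The authors' 3 deposited tables cover the 3 pairs of groups. Per the file headers, they give raw counts per gene and library, the authors' log2 fold change, and its raw and adjusted p-value. The counts of libraries that stand in 2 tables were compared, and 0 of 190116 values differed, so all were joined. All 21124 identifiers are rat identifiers, although the labels give mouse as the organism and HISAT2 2.0.5 and the mouse build GRCm38.p6 stand in the submitters' processing notes. Coordinates are those of the deposited tables, and no source used here states their rat build, the counting tool or its strand setting. The tables used here hold no gene lengths, so levels of different genes are not compared. Among the libraries of a group, the counts differed by more than sampling noise (chi-square per degree of freedom 13.0 to 104).

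The test was the robust quasi-likelihood F-test of edgeR 4.0.16 (R 4.3.3) with TMM scaling, on the 15509 genes left by its default low-count filter. A single fit of all 9 libraries, with 3 group means, left 6 residual degrees of freedom. P-values were adjusted by Benjamini-Hochberg over all tested genes, with a threshold of 0.05. The SE of a log2 change was taken from the F statistic. Scaled counts are counts divided by the effective library size, times the mean effective size of 16584760. The fit was also run on simulated counts, drawn independently for each gene and library. Such counts check the code and do not reproduce variation shared between genes, such as that of muscle RNA. Total counts were 15442190 to 18283418, so genes with few reads are imprecise, and this covers counting error only.

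The members, gene lists and tests were chosen with earlier results of these data known. Named members are those called in any comparison, the 3 with the highest mean in each role, the largest change in each role and comparison among those whose higher group averaged at least 50 scaled counts, and those not tested. From the other pathway lists the called genes are named. Further members were named after their values were seen. The 18 alternatives were DESeq2 1.42.0, RLE factors, TMM factors without collagen genes, no low-count filter, a filter of 10 counts in each library of a group, a block for the replicate number, only the 2 groups compared, each of the 9 libraries left out in turn, the skeletal muscle score as a covariate, and leaving out the 4 libraries with over 0.1% of counts in skeletal muscle genes.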

Additional observations from a re-analysis of the deposited data

How the results depend on the processing

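Over all genes in Injury against Sham, 687 were called, against 1584 by DESeq2, 1456 with only the 2 groups compared, 1 without the muscle-rich libraries and 21 to 1329 when single libraries were left out, lowest without Sham 3 and highest without Sacral NC 2. Of the members 2 were called, against 4 by DESeq2, 6 with only the 2 groups compared, 0 without the muscle-rich libraries and 0 to 4 when single libraries were left out. In Sacral NC against Injury, 1080 genes were called, against 2268 by DESeq2, 239 with only the 2 groups compared, 496 with the muscle covariate, 59 when the muscle-rich libraries were left out and 285 to 3574 when single libraries were left out, lowest without Sacral NC 1 and highest without Sacral NC 2. Of the members 1 was called, against 3 by DESeq2, 0 without a low-count filter, 0 with only the 2 groups compared, 0 with the covariate, 0 without the muscle-rich libraries and 0 to 12 when single libraries were left out. In Sacral NC against Sham, 0 genes were called, against 62 by DESeq2 and 0 to 106 when single libraries were left out, and 0 members under every setting. Where only the 2 groups were compared the fit had fewer libraries, and where the muscle-rich libraries were left out 1 Injury library remained. The causes of the other shifts were not tested.

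Replicate numbers are shared between the groups. Same-numbered libraries did not all deviate together (correlations −0.55 to 0.62), and those of different number had correlations of −0.664 to 0.597. These values do not settle whether the numbers pair the libraries. With the replicate block, 267 genes and 1 member (Wnt5a) were called in Injury against Sham, and 471 genes and 0 members in Sacral NC against Injury. Under the block the log2 change of Dkk1 in Sacral NC against Injury was −0.0412. With 3 pairs, not every library correlated best with its own number.

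Log2 changes that had not passed turned sign in some settings, and the cause was not tested. Among the turned values Dkk1 alone passed, in Sacral NC against Injury without Sacral NC 2 (adjusted p = 0.0481, edgeR). In Injury against Sham, leaving out single libraries gave log2 changes of −0.43 to 0.57 for Dkk1, −0.33 to 0.17 for Lgr5 and −0.45 to 0.0196 for Wnt9a, and leaving out the muscle-rich libraries gave 0.42 for Dkk1 and 0.49 for Lgr5. In Sacral NC against Injury, leaving out single libraries gave −2.68 to 0.94 for Dkk1, −0.20 to 0.58 for Dkk2, −0.20 to 0.91 for Wnt4, −0.25 to 0.0703 for Lgr4, −0.33 to 0.17 for Lgr5 and −0.11 to 0.29 for Lrp6. The muscle covariate gave −0.27 for Dkk2, and leaving out the muscle-rich libraries gave −2.55 for Dkk1. In Sacral NC against Sham, leaving out single libraries gave −0.17 to 0.88 for Notum and −0.0201 to 0.32 for Dkk3. RLE factors and TMM factors without collagen genes moved the median of all genes by under 0.1 on the log2 scale. Depth limits the genes with few reads, Dkk1, Rspo2, Fzd10 and the untested members among them.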

Other observations

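Fzd6, a Frizzled receptor of planar polarity in skin and hair, had 1014, 723 and 644 scaled counts in Sacral NC, 857, 981 and 794 in Injury, and 750, 1272 and 1004 in Sham. The groups overlapped in every comparison. Fzd9 had 102, 506 and 188 scaled counts in Sacral NC, 228, 361 and 233 in Injury, and 300, 198 and 149 in Sham, with Sacral NC 2 the highest of the 9 libraries and Sacral NC 1 the lowest. Fzd10 was scarce, with at most 14 reads in a library. Fzd1, Fzd3, Fzd5 and Fzd7 overlapped in all 3 comparisons. Wnt16 had 54.9, 13.2 and 2.07 scaled counts in Sacral NC and 29.6, 17.4 and 20.7 in Sham, and the counts of Wnt10a were 67.8, 18.2 and 11.4 in Sacral NC and 14.4, 39.5 and 22.6 in Sham. Sacral NC 1 was the highest of all 9 libraries for both.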
